A study of Homo sapiens with 10 samples.

Results

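The 5 genes that encode the subunits of NF-κB, NFKB1, NFKB2, REL, RELA and RELB, were examined for H3K27ac, an acetylation of histone H3 that marks active promoters and enhancers. The members were fixed by name and make up 5 of the 19962 protein-coding genes of the GENCODE annotation used. In each of 8 peak lists, the peaks overlapping the gene body with 50 kb on each side were taken, which gave 24 to 34 peaks per list and 233 of 334329 peaks over all lists.

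NF-κB is a family of transcription factors that bind DNA as dimers of these subunits. In the canonical pathway, dimers that contain RELA or REL are held in the cytoplasm by IκB proteins until the IκB kinase complex marks these inhibitors for degradation. In the non-canonical pathway, which the cytokine TWEAK engages through its receptor Fn14, the kinase NIK accumulates and drives processing of the NFKB2 precursor, whose product pairs with RELB. NFKB1 encodes the precursor of the DNA-binding partner of RELA and REL.

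H3K27ac ChIP-seq had been performed in SKBR3 and MDA-MB-453, which are established human breast cancer cell lines. Both lines were starved in Opti-MEM for 8 h. The TWEAK groups then received recombinant TWEAK at 10 ng/ml for 48 h, replenished at 24 h, and the control groups were left untreated. Each of the 4 groups had 2 libraries, and the 2 input samples, 1 per line, were not analysed here. The study's methods describe the replicates as biological, and the p-values given here measure the spread between these libraries of 1 cell line each.

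The SKBR3 lists held 43684 to 51687 peaks and the MDA-MB-453 lists 36148 to 37813. The second SKBR3 TWEAK library stood apart with 51687 peaks, against 43684 to 45371 in the other 3 lists of that line, so the comparisons were repeated without it. Of 7 breast epithelial marker genes, 7 had a peak at the start site in all 4 MDA-MB-453 lists and 6 in all 4 SKBR3 lists, with CDH1 in 0 SKBR3 lists. Among 5 markers of other cell types, PTPRC, CD3E and PECAM1 were in 0 lists, COL1A1 was in all 8 and ACTA2 in 3 MDA-MB-453 lists. The peak lists carry no read totals, and library depth is therefore unknown.

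The promoter and region sequences that the results below refer to were read first. RefSeq promoters (GRCh38.p14) were found for 4 of the 5 members, NFKB1, NFKB2, REL and RELA, and there was no entry for RELB. Each promoter holds 250 bases before and 50 bases after a start site, and it was searched on both strands for the NF-κB consensus and for the AP-1 motif TGACTCA, which reads TGAGTCA on the other strand. Of all 35116 promoters in the table, 5.91% held an NF-κB match and 4.95% an AP-1 match. NF-κB matches lay before the start sites of NFKB1, NFKB2 and REL, whereas the 2 RELA promoters held 0 matches to either motif. The merged peak region at the RELA start site, which is wider than these promoters, held 0 NF-κB and 5 AP-1 matches. The start site regions of NFKB1, NFKB2 and REL held 0, 1 and 0 AP-1 matches. For RELB, the merged peak region at the start site held 2 NF-κB and 2 AP-1 matches. How many matches whole regions hold in general was not counted. The NF-κB matches of RELB began at chr19:45001333 and chr19:45001405, ahead of the canonical start site at 45001464. The RELB peak of the second untreated SKBR3 list began past both, at 45001418. All stretches are on the plus strand of hg38, 5′ to 3′, with NF-κB matches in capitals. They are shown because they lie under the peaks whose ranks are compared, and a match is a description of the letters and not of binding. Bases annotated as untranslated in another transcript of the same gene were shown only as sites of 24 bases.
NFKB1, 250 to 30 bases before the start, chr4:102501109-102501329: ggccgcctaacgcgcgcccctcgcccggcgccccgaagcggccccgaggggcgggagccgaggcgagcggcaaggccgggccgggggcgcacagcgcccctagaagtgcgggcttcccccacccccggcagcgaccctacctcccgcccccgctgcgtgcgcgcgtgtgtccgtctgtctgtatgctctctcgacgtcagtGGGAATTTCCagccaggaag
NFKB2, first site before the upstream start, chr10:102394464-102394487: acgtcatGGGAATTCCCCcctccg
NFKB2, second site before the upstream start, chr10:102394493-102394516: ccgagaaGGGGCTTTCCcggccct
NFKB2, 250 to 12 bases before the canonical start, chr10:102395455-102395693: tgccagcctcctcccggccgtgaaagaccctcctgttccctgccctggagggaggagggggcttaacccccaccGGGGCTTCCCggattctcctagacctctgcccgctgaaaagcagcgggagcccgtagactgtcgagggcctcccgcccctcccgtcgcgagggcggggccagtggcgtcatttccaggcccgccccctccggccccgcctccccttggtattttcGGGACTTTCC
REL, site before the start, chr2:60881520-60881543: cagccgcGGGAAATTCCCctcccg

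NFKB2 thus held matches in 2 of its 3 RefSeq promoters, where overlapping matches on the 2 strands are written as 1 run of capitals. In the promoter that begins at the canonical start site, the matches began 176 and 21 bases before it. The NFKB1 match began 49 bases and the REL match 47 bases before the start.

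Each member had an H3K27ac peak within 1 kb of its canonical start site in all 8 lists, and this peak held no start site of another protein-coding gene. The ranks of these peaks separated the cell lines at every member, and TWEAK went with a higher rank at NFKB2 in both lines and at REL in MDA-MB-453. Rank was taken as the percentile of the peak's score within its own list, where 100 is the highest, because the lists carry no signal that can be compared between libraries. The map of peaks around each member shows where these and the other peaks lie.

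**Figure D1:**
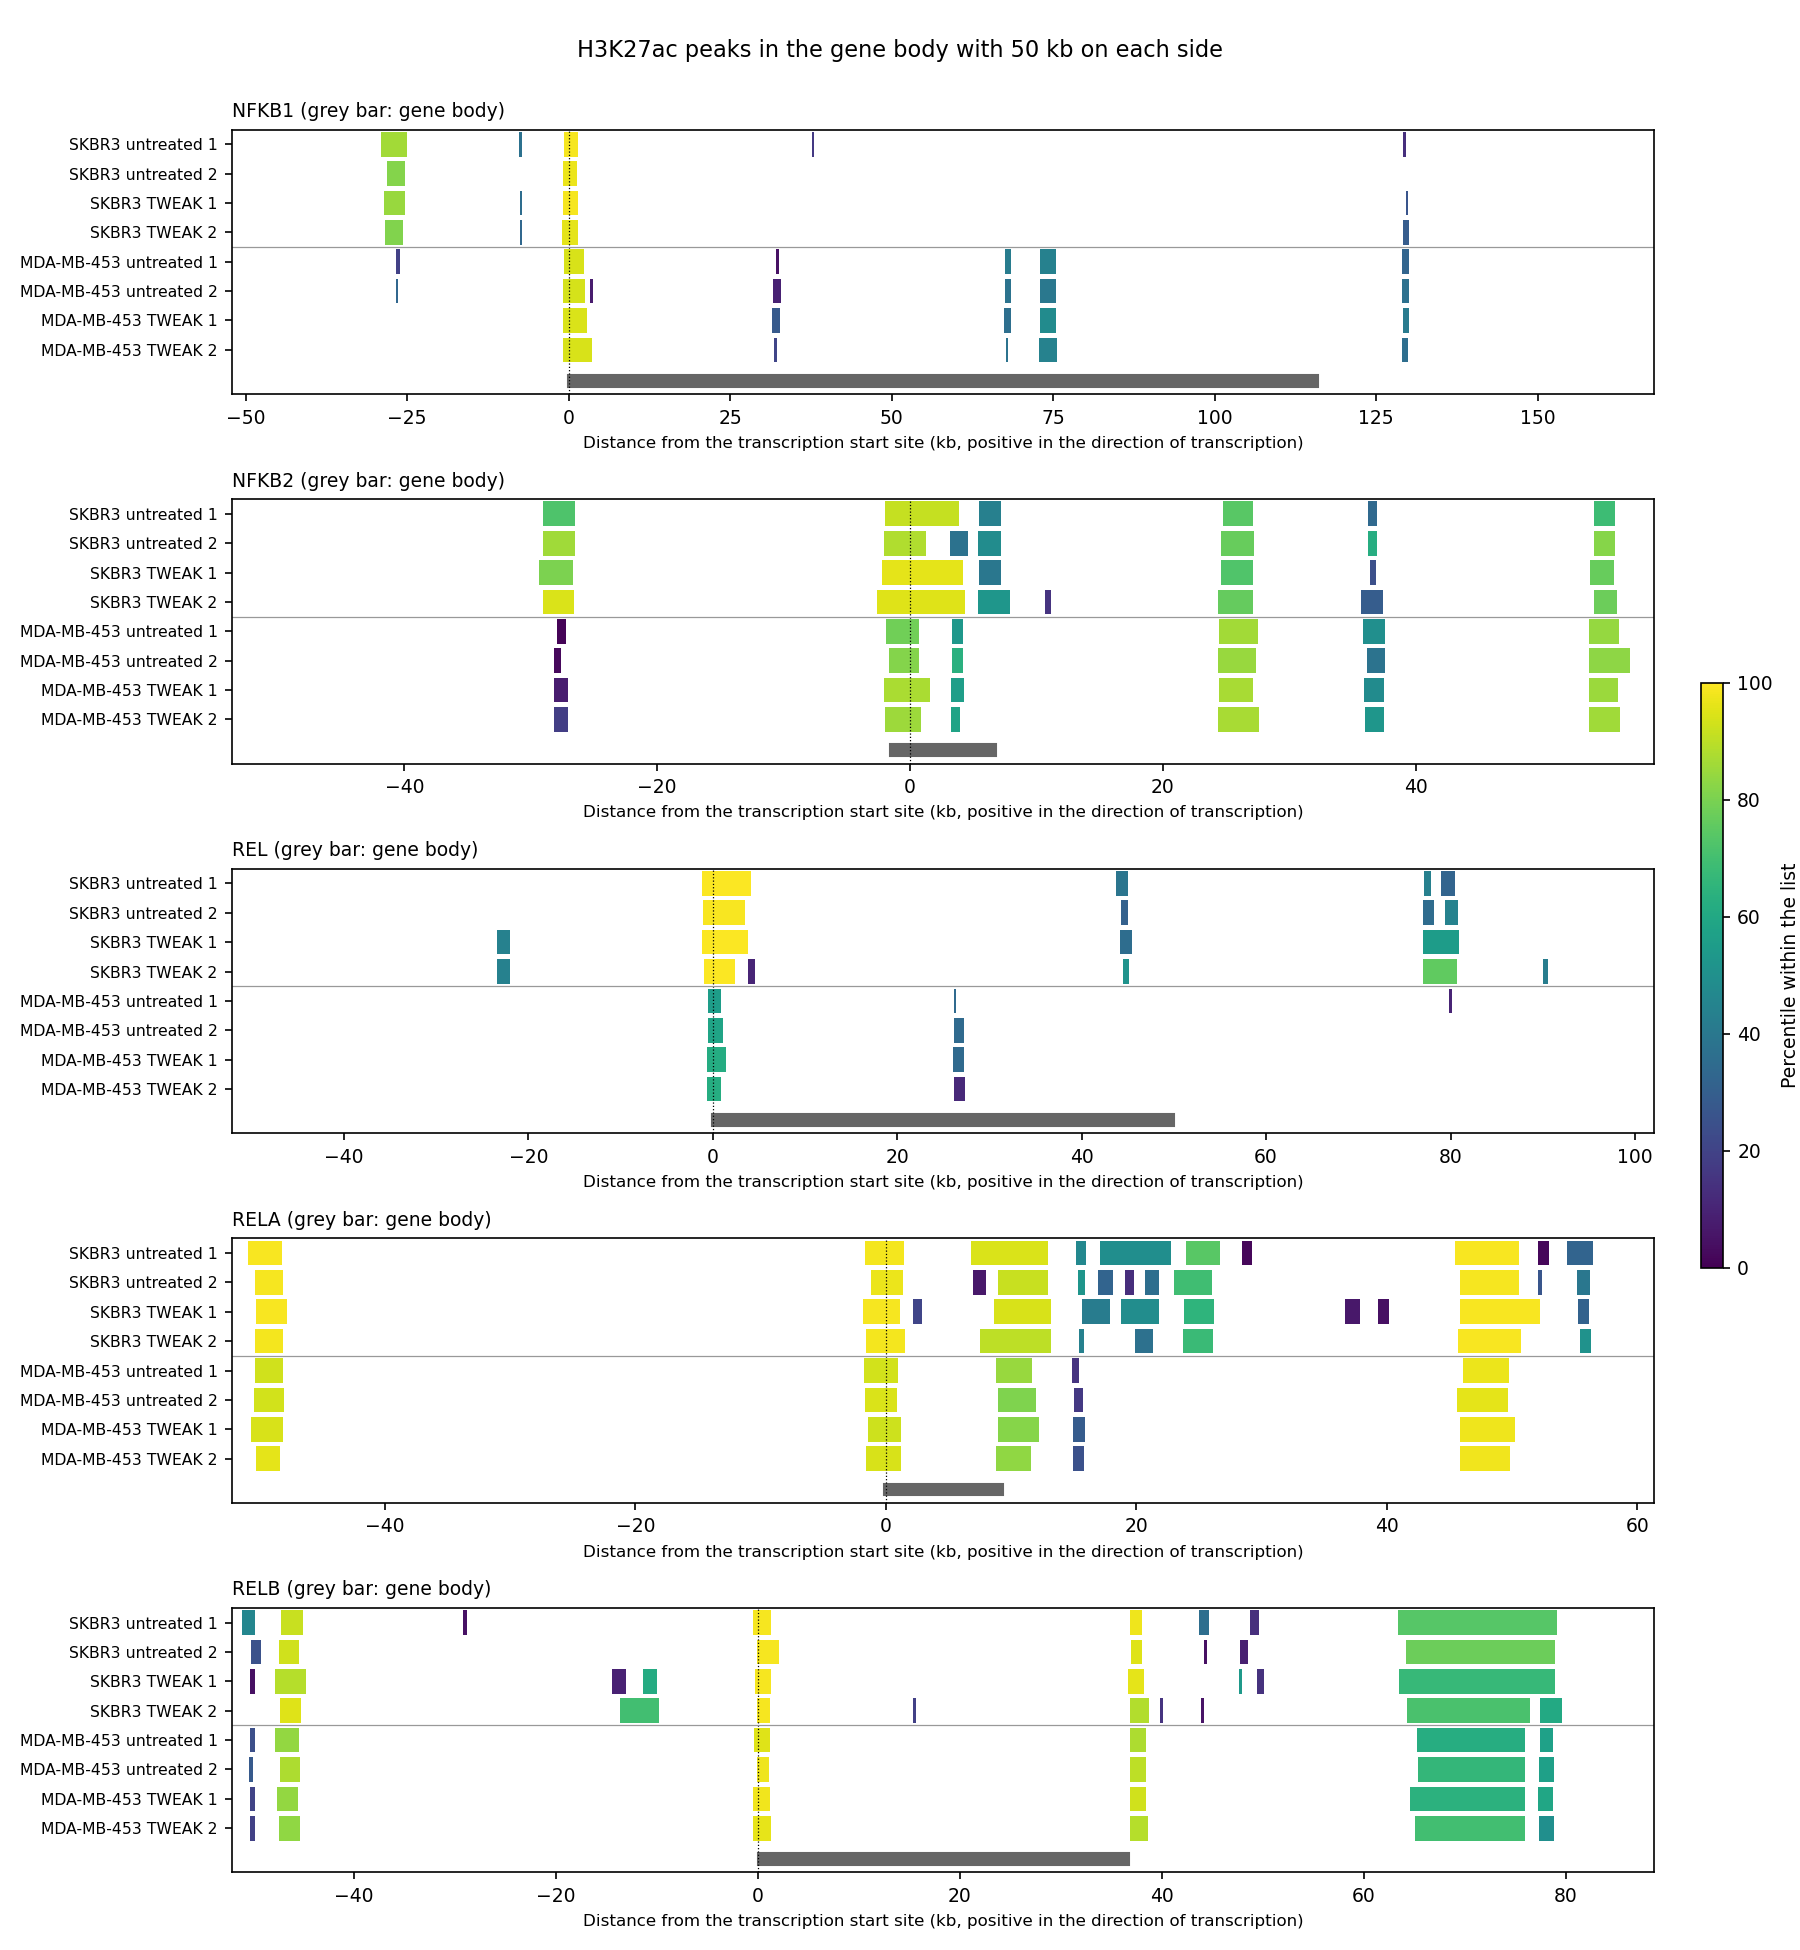
H3K27ac peaks in the gene body with 50 kb on each side of the 5 NF-κB subunit genes, 1 row per library. The x axis gives the distance from the canonical start site in kb, the colour gives the percentile of the peak within its list, and the grey bar is the gene body. Every row has a peak at 0 kb, and it was at percentile 88.1 or higher in all SKBR3 rows, whereas at REL it lay between 55.3 and 62.0 in MDA-MB-453.

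NFKB2 (chr10:102394110-102402524, plus strand, canonical start site at 102395705) encodes the precursor that the non-canonical pathway processes. In untreated SKBR3 its start site peak lay at percentiles 91.4 and 88.1, and in TWEAK-treated SKBR3 at 96.0 and 95.2. In MDA-MB-453 it lay at 78.2 and 81.4 untreated and at 87.5 and 85.3 with TWEAK. Both TWEAK libraries were above both untreated libraries in each line, without overlap. The means were 89.8 ± 2.31 untreated and 95.6 ± 0.543 with TWEAK in SKBR3 (SD, n = 2 each), and 79.8 ± 2.23 and 86.4 ± 1.55 in MDA-MB-453 (SD, n = 2 each). These differences of 5.87 and 6.59 points each had an exact permutation p of 0.333, which is the smallest that 2 libraries against 2 allow. Without the second SKBR3 TWEAK library the SKBR3 difference was 6.25 points.

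The peak score behind these ranks is 10 times the −log10 q-value. For NFKB2, the authors' fold enrichment over background at the start site was 10.3 and 11.7 in untreated SKBR3 and 17.6 and 14.4 with TWEAK. The untreated MDA-MB-453 lists gave 10.7 and 11.4, and those with TWEAK gave 13.9 and 12.4. By fold enrichment, too, both TWEAK libraries were above both untreated ones in each line.

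Across all genes with a start site peak in every list of the line, a rank above both untreated libraries was uncommon in SKBR3 and common in MDA-MB-453. In SKBR3, 8.37% of 10240 genes had both TWEAK libraries above both untreated ones and 26.3% had both below, and the median difference over all genes was -1.45 points. In MDA-MB-453 the shares were 26.6% higher and 12.1% lower of 10870 genes, with a median of 0.467 points. Of the 5 members, 1 was higher and 0 lower in SKBR3, and 2 were higher and 0 lower in MDA-MB-453. The share of all genes that were higher in both lines was not counted. The NFKB2 difference exceeded that of 94.0% of genes in SKBR3, as the distribution of changes over all genes shows.

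**Figure D2:**
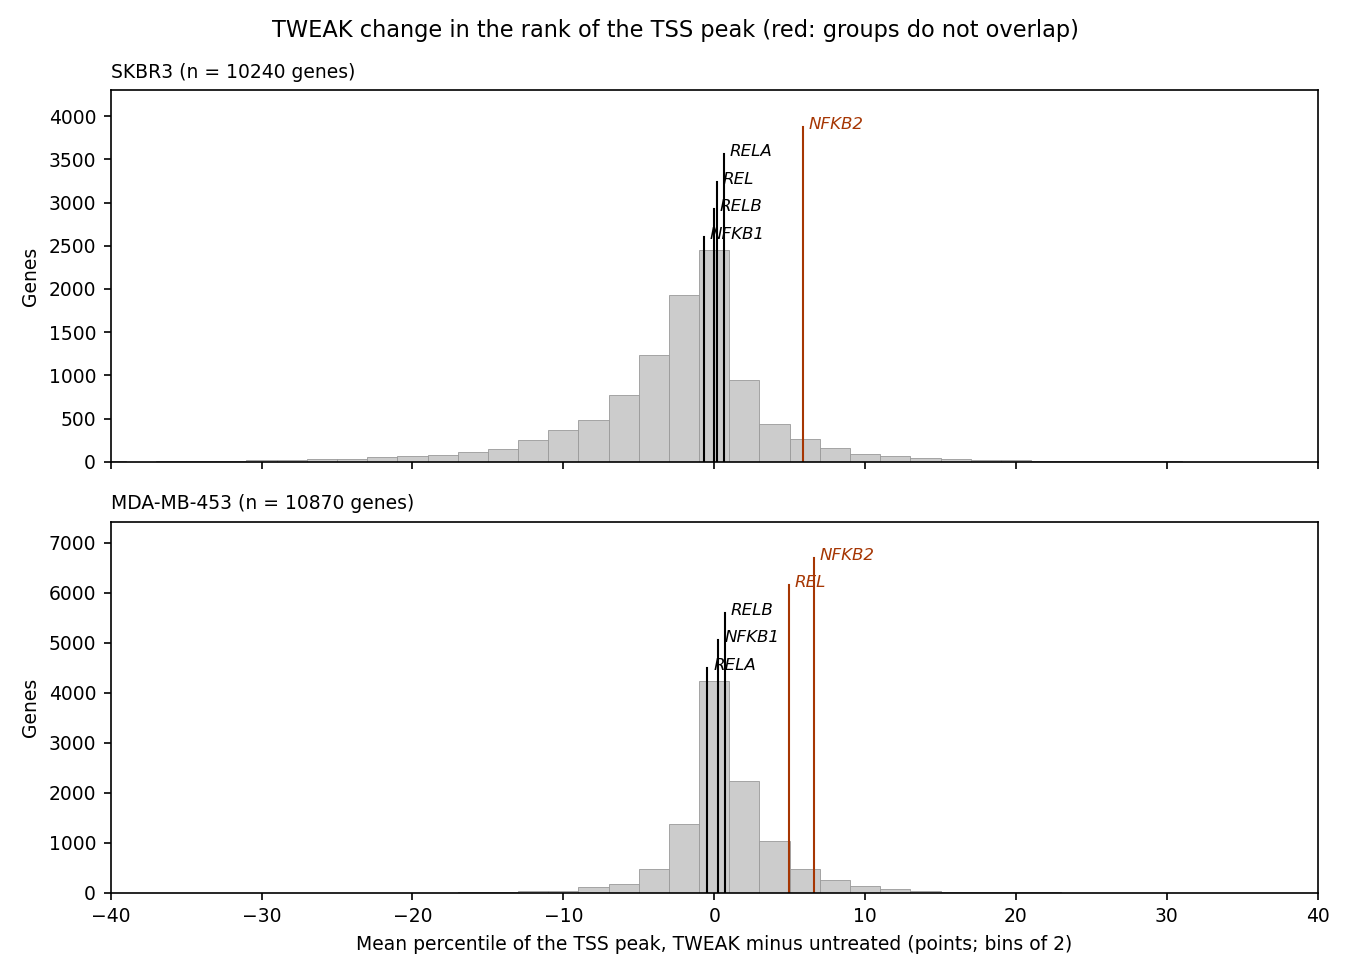
Distribution over genes of the TWEAK change in the percentile of the start site peak (x axis, points, bins of 2 points; y axis, number of genes), for SKBR3 above and MDA-MB-453 below. Lines mark the 5 members, in red where the TWEAK and untreated libraries do not overlap: NFKB2 at 5.87 and 6.59, and REL at 4.94 in MDA-MB-453.

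REL (chr2:60881491-60931612, plus strand, start site at 60881574) encodes c-Rel, the subunit best known from lymphoid cells. Its start site peak was among the highest of every SKBR3 list, at 99.5 and 99.0 untreated and 99.4 and 99.3 with TWEAK. In MDA-MB-453 it lay at 55.3 and 58.2 untreated and at 61.4 and 62.0 with TWEAK. The 2 treatment groups overlapped in SKBR3 and did not in MDA-MB-453, where the mean with TWEAK was higher by 4.94 points (56.7 ± 2.08 untreated and 61.7 ± 0.450 with TWEAK, SD, n = 2 each, exact permutation p = 0.333, the smallest possible). The change in SKBR3 minus that in MDA-MB-453 was -4.77 points and had an exact permutation p of 0.222 over 36 assignments. With REL at 99.0 or above in every SKBR3 list, close to the upper limit of 100, little rise was possible there. This contrast therefore cannot tell a smaller response from that limit.

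NFKB1, RELA and RELB had overlapping ranks with and without TWEAK in both lines. Their percentiles were at 92.6 or higher in every list, close to the upper limit of 100, so overlap here does not show that the peaks were alike. NFKB1 (chr4:102501330-102617302, plus strand) lay at 98.7 and 97.2 untreated and 98.6 and 95.9 with TWEAK in SKBR3, and at 94.1 and 93.6 untreated and 94.2 and 94.0 with TWEAK in MDA-MB-453. RELA (chr11:65653599-65663090, minus strand), the transactivating subunit of the canonical dimer, lay at 98.2 and 97.3 and at 98.7 and 98.1 in SKBR3, and at 93.2 and 94.3 and at 92.6 and 94.0 in MDA-MB-453. RELB (chr19:45001461-45038192, plus strand), the non-canonical partner of processed NFKB2, lay between 98.7 and 98.8 in all 4 SKBR3 lists. In MDA-MB-453 RELB lay at 95.1 and 97.6 untreated and at 97.8 and 96.4 with TWEAK. The mean change with TWEAK in these 3 genes was between -0.692 and 0.707 points.

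**Figure D3:**
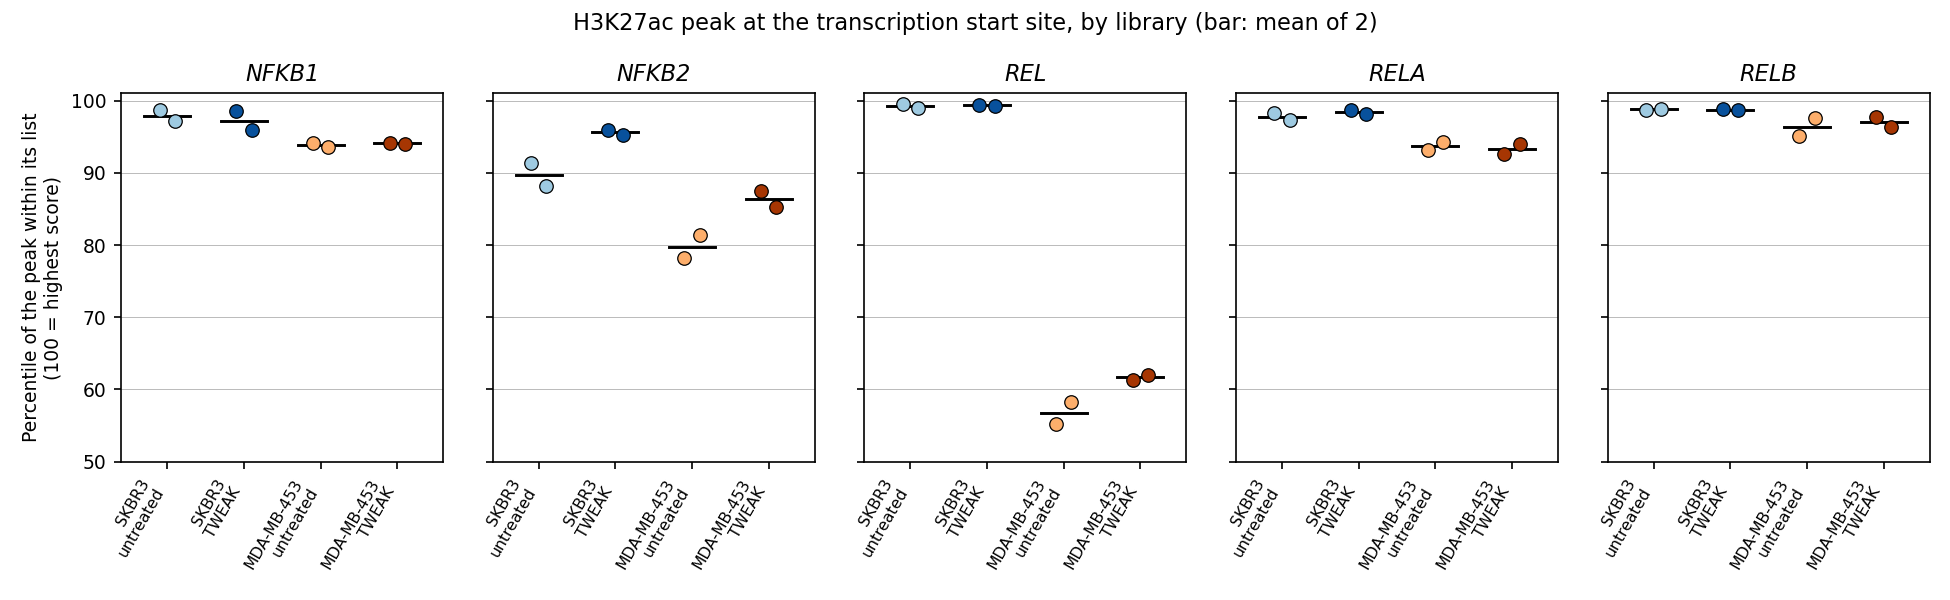
Percentile of the start site H3K27ac peak within its list (y axis) for each library of the 4 groups, with a bar at the mean of 2 libraries. NFKB2 points are higher with TWEAK in both lines, and REL lies at 99.0 or above in SKBR3 and at 62.0 or below in MDA-MB-453.

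All 5 members ranked higher in SKBR3 than in MDA-MB-453, with no overlap between the 4 libraries of each line. REL differed most, by 40.1 points (99.3 ± 0.242 against 59.2 ± 3.10, SD, n = 4 each), a difference that exceeded that of 98.5% of 9556 genes. The differences were 9.60 points for NFKB2, 4.54 for RELA, 3.65 for NFKB1 and 2.05 for RELB. Each had an exact permutation p of 0.0286 over 70 assignments, the smallest that 4 libraries against 4 allow, and a Benjamini-Hochberg adjusted p of 0.0485 over all 9556 genes tested. Such a separation was frequent, since 29.6% of genes were higher and 29.3% lower in SKBR3 without overlap. Every separated gene has this same smallest p, so the adjusted p follows from how many genes separate and cannot grade single members. In the SKBR3 lists 39.4 to 52.6% of peaks had q-values under 1e-05, against 59.8 to 63.8% in the MDA-MB-453 lists. Whether this difference between lists accounts for the higher ranks was not tested. The differences in REL were 42.5 points among untreated libraries and 37.7 points among TWEAK libraries. For NFKB2 the 2 lines overlapped when all lists were cut to equal size (difference 8.09 points, exact permutation p = 0.0571) or to q-values under 1e-05 (11.8 points, p = 0.0857 by the same exact test).

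The REL difference was also present in the deposited fold enrichment and in the width of the peak. Its fold enrichment was 24.1 and 25.0 in untreated and 29.4 and 25.4 in TWEAK-treated SKBR3, against 4.96 to 5.55 in the MDA-MB-453 lists. The peak was 5251 and 4528 bp wide in untreated SKBR3 and 4913 and 3427 bp with TWEAK. The untreated MDA-MB-453 peaks were 1464 and 1663 bp wide, and those with TWEAK were 2010 and 1499 bp. It reached 2.45 to 4.11 kb into the gene in SKBR3 and 0.879 to 1.42 kb in MDA-MB-453. In NFKB1, NFKB2, RELA and RELB, by contrast, the fold enrichment itself overlapped between the lines. The lowest SKBR3 and highest MDA-MB-453 values were 15.4 and 21.4 for NFKB1 and 10.3 and 13.9 for NFKB2. For RELA they were 17.9 and 18.5, and for RELB 17.4 and 23.5. Ranked within each list by fold enrichment, all 5 members were still higher in SKBR3 without overlap.

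Of the 5 members, the REL peak was wider in all SKBR3 libraries than in any MDA-MB-453 library (4530 ± 792 bp against 1659 ± 250 bp, SD, n = 4 each) and the NFKB1 peak narrower (2296 ± 165 bp against 3676 ± 559 bp). Both had an exact permutation p of 0.0286, with an adjusted p of 0.0529 over 9556 genes that missed the 0.05 threshold. All separated genes share this adjusted p, which follows from how many genes separate and says nothing about REL or NFKB1 alone. Over all genes, 17.2% were wider and 36.8% narrower in SKBR3 without overlap. The widths of NFKB2, RELA and RELB overlapped between the lines over all 8 libraries. Among the 4 untreated libraries alone NFKB2 and RELB were wider in SKBR3, and among the 4 TWEAK libraries NFKB2 and RELA were.

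With TWEAK the start site peaks of NFKB1 and NFKB2 were wider in both lines. NFKB1 measured 2163 and 2172 bp untreated and 2335 and 2513 bp with TWEAK in SKBR3, and 3168 and 3364 bp untreated and 3734 and 4437 bp with TWEAK in MDA-MB-453. NFKB2 measured 5927 and 3387 bp untreated and 6414 and 6942 bp with TWEAK in SKBR3, and 2610 and 2365 bp untreated and 3673 and 2900 bp with TWEAK in MDA-MB-453. The groups did not overlap in any of these comparisons. The NFKB2 peak in SKBR3 reached 4.20 and 4.35 kb into the gene with TWEAK, and 3.91 and 1.29 kb in the untreated libraries. In the second untreated list a separate peak was called just downstream, so this width depends on whether neighbouring peaks were joined. The same holds for NFKB1 in MDA-MB-453. There the second untreated list had a separate peak of 434 bp (chr4:102504728-102505161), a place that the 4437 bp TWEAK peak reached. RELB was narrower with TWEAK in SKBR3, at 1672 and 1245 bp against 1745 and 2168 bp, and wider in MDA-MB-453, at 1627 and 1818 bp against 1597 and 1180 bp.

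Altogether 2 members were wider and 1 narrower with TWEAK in SKBR3, against 14.5% and 18.5% of genes. In MDA-MB-453, 3 members were wider and 0 narrower, against 18.9% and 15.6% of genes. The exact permutation p was 0.333 for each of these 6 changes, and the share of all genes wider in both lines was not counted. Without the second SKBR3 TWEAK library the differences in that line were 167.5 bp for NFKB1, 1757 bp for NFKB2 and -284.5 bp for RELB, and leaving out a library cannot make separated groups overlap.

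**Figure D4:**
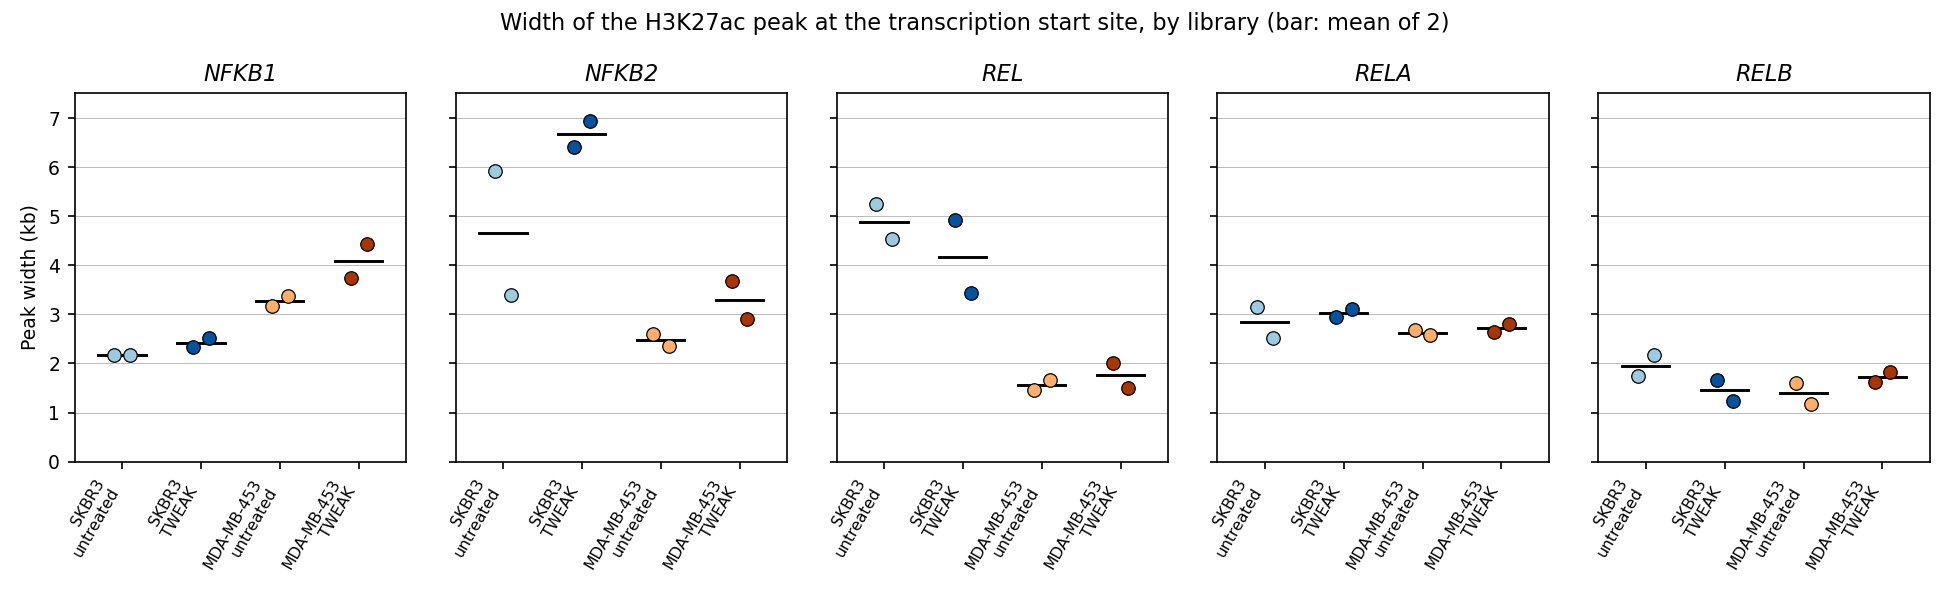
Width of the start site H3K27ac peak in kb (y axis from 0) for each library of the 4 groups, with a bar at the mean of 2 libraries. The NFKB2 and NFKB1 peaks are wider with TWEAK in both lines, and the REL peak is 3427 bp or wider in SKBR3 and 2010 bp or narrower in MDA-MB-453.

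The length covered by peaks in the whole window of a member also separated the lines. NFKB1 had 4949 to 7094 bp covered in SKBR3 and 8742 to 9741 bp in MDA-MB-453, and was the member with more covered length in MDA-MB-453. The other 4 members had more in SKBR3, with means of 15825 bp against 11785 bp for NFKB2, 9756 bp against 2631 bp for REL, 24981 bp against 12477 bp for RELA and 23843 bp against 17814 bp for RELB. All 5 differences had an exact permutation p of 0.0286 and an adjusted p of 0.0417 over the windows of 18542 genes, of which 43.9% were higher and 24.6% lower in SKBR3. The SKBR3 lists also covered more of the genome, with 92.1 to 106 Mb against 70.5 to 72.1 Mb. Peaks at other genes in a window count towards its covered length. In the RELB window a peak of 10536 to 15742 bp per list lay over the start site of ZNF296. The RELA window held peaks at the start sites of MAP3K11, PCNX3 and KAT5 in all 8 lists, and at SIPA1. The part of the length that belongs to the members themselves was not measured.

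With TWEAK, the covered length of the NFKB2, REL and RELB windows was above both untreated libraries in SKBR3, and that of the NFKB2 and RELB windows in MDA-MB-453. The share of genes with this pattern was 19.9% higher and 14.5% lower in SKBR3, and 19.5% higher and 16.7% lower in MDA-MB-453. In the NFKB2 window the covered length was 14852 and 13984 bp untreated and 15717 and 18745 bp with TWEAK in SKBR3. MDA-MB-453 had 11537 and 11363 bp untreated, and 12356 and 11882 bp with TWEAK.

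Peaks of the 8 lists were merged where they overlapped by 1 bp or more, which gave 44 regions in the 5 windows. Of these, 16 were in all 8 lists, 4 were in all SKBR3 and no MDA-MB-453 list, and 4 were in all MDA-MB-453 and no SKBR3 list. The same classes held 14.1% and 10.5% of all 76044 merged regions. The 1000 bp around the midpoint held an NF-κB match at 15.9% of the 44 regions and 13.8% of all merged regions, and an AP-1 match at 20.5% and 23%. This span reaches past regions narrower than 1000 bp, and some of the matches lay outside the region itself. An NFKB2 region of 516 bp, for example, held 0 NF-κB matches though its span held a match.

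The 4 regions found in MDA-MB-453 lists alone lay inside the gene bodies of NFKB1 and REL. Those of NFKB1 were intronic, 32.2, 67.9 and 74.2 kb downstream of the start site. The region at 74.2 kb (chr4:102574202-102576974) lay at percentiles 43.6 and 39.9 untreated and 47.9 and 44.3 with TWEAK, and that at 67.9 kb (chr4:102568753-102569835) at a mean of 39.9 untreated and 37.1 with TWEAK. The REL region, 26.7 kb downstream in an intron (chr2:60907669-60908874), lay at 34.1 and 34.3 untreated and at 34.0 and 11.3 with TWEAK. With only q-values under 1e-05, 0 regions of this class were left.

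The SKBR3 regions were in the windows of NFKB2, REL and RELA. Those of RELA lay downstream of the gene, at 24.8 kb over the start of SIPA1 and at 55.4 kb in an intron of MAP3K11. The region at SIPA1 (chr11:65636258-65639940) lay at percentiles 74.2 and 69.5 untreated and 64.8 and 67.7 with TWEAK. The region in MAP3K11 (chr11:65606474-65608564) lay at 31.9 and 39.6 untreated and 31.1 and 50.9 with TWEAK. The NFKB2 region covered the 3′ end of the gene, 6.63 kb from its start site (chr10:102401081-102403587, 43.3 and 48.3 untreated and 39.7 and 52.7 with TWEAK). The REL region lay 44.6 kb from the start site, over exons of REL and of an overlapping long non-coding RNA (chr2:60925271-60927088, 39.1 and 30.5 untreated and 35.2 and 51.5 with TWEAK).

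In SKBR3, 2 of 40 regions in the windows were gained with TWEAK, meaning that both treated libraries had a peak there and no untreated library did. The reverse, a loss, was seen for 0 regions. Over all 62104 regions of the line, 4.61% were gained and 1.4% lost. The gained RELB region (chr19:44987027-44991720) lay 12.1 kb upstream of the RELB start site within CLPTM1, a gene for a transmembrane protein. Its highest peak lay at percentiles 61.1 and 69.7 with fold enrichments of 5.17 and 5.78. The gained REL region (chr2:60858210-60859634) lay 22.7 kb upstream of REL, in an intron of the divergent transcript REL-DT, at percentiles 43.5 and 43.7 with fold enrichments of 3.74 and 3.64. Neither place held a peak in any MDA-MB-453 list.

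A stretch of each gained region is given to show the letters under the TWEAK peaks. The RELB region held 6 NF-κB matches, some of them overlapping, and 1 AP-1 match in 4694 bp, and the REL region held 0 of either in 1425 bp. The NF-κB matches that began at chr19:44990672, 44990673 and 44991125 lay under a peak in both TWEAK lists. The others did not lie wholly under a peak in both. How many matches whole regions hold in general was not counted. The RELB stretch was centred on a match in the part of the peak shared by both TWEAK lists, away from the midpoint of the region, whose central 1000 bp held 0 NF-κB matches. The REL stretch is the centre of the shared part.
RELB, gained region, chr19:44990578-44990777: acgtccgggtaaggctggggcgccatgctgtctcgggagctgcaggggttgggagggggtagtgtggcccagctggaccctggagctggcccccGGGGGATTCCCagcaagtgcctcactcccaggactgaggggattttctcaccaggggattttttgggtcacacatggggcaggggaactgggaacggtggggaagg
REL, gained region, chr2:60858812-60859011: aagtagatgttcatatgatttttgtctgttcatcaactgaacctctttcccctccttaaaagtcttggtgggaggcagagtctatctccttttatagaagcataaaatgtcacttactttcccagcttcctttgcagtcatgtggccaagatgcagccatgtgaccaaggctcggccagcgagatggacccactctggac

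Under q-values below 1e-05 the RELB region was still gained and the REL region was not. Leaving out a library cannot undo a gain by this definition, and the number of gained regions then ranged from 2 to 6.

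In MDA-MB-453, 0 of 26 regions were gained and 1 was lost, against 1.33% and 1.3% of 42831 regions. The lost region (chr4:102474604-102475286) lay 26.4 kb upstream of NFKB1, outside any annotated gene, at percentiles 19.5 and 32.9 in the untreated lists. In SKBR3 the same place held a peak in all 4 lists at percentiles 81.0 to 86.3. In MDA-MB-453 the peaks were 683 and 330 bp wide with −log10 q-values of 2.79 and 3.84, and the region was not called lost when only q-values under 1e-05 were used or when peaks had to cover 50% of a region.

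Among regions present in all 4 lists of a line, the ranks of 3 of 22 were higher and 4 lower with TWEAK in SKBR3, against 20.9% and 17.4% of 30803 regions. In MDA-MB-453, 10 of 24 were higher and 3 lower, against 20.6% and 17.9% of 31162 regions. Of the 10, 4 lay in the NFKB2 window, 3 in the RELA window, 2 in the NFKB1 window and 1, the start site, at REL. Some were start site regions of neighbouring genes, FBXL15 and C10orf95 in the NFKB2 window and MAP3K11 with PCNX3 and KAT5 in the RELA window. The other region of the RELA window lay over an exon of SIPA1, and the RELA start site region overlapped between treatments. The NFKB1 intronic region at 32.2 kb (chr4:102532888-102534264) had 4.59 and 9.31 untreated and 28.0 and 20.6 with TWEAK. In SKBR3 a region in an intron of PUS10, 78.9 kb from the REL start site (chr2:60958582-60962453), had 43.3 and 44.0 untreated and 54.7 and 75.7 with TWEAK.

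The NFKB2 window also held a region 27.9 kb upstream of the start site within GBF1, a gene for a factor of the Golgi (chr10:102366387-102369178). It lay at 72.2 and 85.9 untreated and 80.3 and 94.4 with TWEAK in SKBR3, where the groups overlapped. In MDA-MB-453 it lay near the bottom of the lists, at 0.983 and 2.13 untreated and at 8.20 and 18.3 with TWEAK, without overlap. The region held 1 NF-κB match, shown in capitals below, which lay under a peak in 6 lists: all 4 of SKBR3 and both TWEAK lists of MDA-MB-453. In the untreated MDA-MB-453 lists the peaks, 741 and 609 bp wide, ended before it, at 102368498 and 102368129, while the match began at 102368555. All MDA-MB-453 peaks here were weak, with −log10 q-values of 1.22 and 1.26 untreated and 1.77 and 2.52 with TWEAK. The region also held 1 AP-1 match, outside the stretch shown.
NFKB2, region within GBF1, chr10:102368460-102368659: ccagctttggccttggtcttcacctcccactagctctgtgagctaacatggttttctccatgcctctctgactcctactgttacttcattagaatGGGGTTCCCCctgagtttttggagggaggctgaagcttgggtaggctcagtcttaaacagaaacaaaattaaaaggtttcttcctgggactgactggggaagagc

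Peaks not wholly within 2.5 kb of a start site were stitched over the gaps that ROSE bridges by default and ranked by width times fold enrichment, following the steps of that super-enhancer caller without reads. Past the point of slope 1 on the rank curve, 767 to 1066 clusters per list counted as super-enhancer-like. The RELB window touched such a cluster in 3 of 4 SKBR3 lists and in 0 MDA-MB-453 lists. It lay downstream of RELB and was 65.9 to 69.9 kb long, with ranks of 144 to 303, and most of it lay beyond the window. In the second SKBR3 TWEAK library the cluster was 12.1 kb long and ranked 2331. The MDA-MB-453 lists had a cluster at this place too, 10.5 to 11.4 kb long with ranks of 1468 to 1874. In the 3 lists with the long cluster, its first peak was 14816 to 15742 bp wide, over the start sites of ZNF296 and GEMIN7. In the second SKBR3 TWEAK list and all MDA-MB-453 lists this peak was called in separate pieces. Whether that split accounts for the contrast was not tested. How often the windows of all genes touch a super-enhancer-like cluster was not counted. The other 4 members had no such cluster in any list.

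The other genes of the pathway were taken as a list of 15: the receptor TNFRSF12A (Fn14), the adaptors TRAF2, TRAF3, BIRC2 and BIRC3, the kinases MAP3K14 (NIK), CHUK and IKBKB with their scaffold IKBKG, the IκB proteins NFKBIA, NFKBIB, NFKBIE and BCL3, and the deubiquitinases TNFAIP3 and CYLD. All 15 had a start site peak in all 8 lists. In SKBR3, 6 ranked higher and 1 lower with TWEAK without overlap, beside 8.37% and 26.3% of all genes, and in MDA-MB-453, 7 ranked higher and 2 lower, beside 26.6% and 12.1%. The median change over the list was 0.146 points in SKBR3 and 2.04 in MDA-MB-453, beside -1.45 and 0.467 over all genes. TRAF2, TRAF3, BIRC3 and NFKBIE were higher in both lines, a pattern whose share among all genes was not counted.

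Among the adaptors, by percentile, BIRC3, a ubiquitin ligase and known NF-κB target, had 69.7 and 55.8 untreated and 89.4 and 94.2 with TWEAK in SKBR3, and 61.6 and 57.4 untreated and 67.2 and 70.4 with TWEAK in MDA-MB-453. TRAF2 had 90.7 and 85.7 untreated and 98.8 and 99.2 with TWEAK in SKBR3, and 68.0 and 62.5 untreated and 73.4 and 69.3 with TWEAK in MDA-MB-453. Its partner TRAF3, which holds NIK at a low level, had 72.2 and 66.8 untreated and 78.9 and 77.7 with TWEAK in SKBR3, and 8.70 and 23.7 untreated and 38.3 and 44.3 with TWEAK in MDA-MB-453. All 3 showed TWEAK libraries above untreated ones in each line.

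Among the inhibitors, NFKBIE had percentiles of 61.9 and 49.3 untreated and 68.1 and 69.9 with TWEAK in SKBR3, and 21.5 and 32.1 untreated and 57.2 and 54.8 with TWEAK in MDA-MB-453. NFKBIA was higher in MDA-MB-453, with 80.3 and 80.2 untreated and 86.7 and 86.7 treated, and overlapped in SKBR3, at 95.1 and 86.4 untreated and 95.7 and 91.7 with TWEAK. TNFAIP3, which encodes A20, likewise had 37.4 and 45.5 untreated and 53.7 and 56.3 with TWEAK in MDA-MB-453 and overlapped in SKBR3. CYLD was higher in SKBR3, with 56.8 and 52.2 untreated and 76.0 and 74.5 treated, and overlapped in MDA-MB-453. TNFRSF12A was higher in SKBR3, with 93.9 and 93.6 untreated and 95.4 and 96.5 treated.

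The remaining calls on rank were small or lower with TWEAK. IKBKG was higher in MDA-MB-453 by 0.0323 points. CHUK was lower in SKBR3, with 57.4 and 55.8 untreated and 50.1 and 53.8 treated. In MDA-MB-453 IKBKB was lower, with 90.1 and 88.4 untreated and 86.3 and 87.6 treated, and BCL3 was lower, with 89.1 and 86.7 untreated and 72.6 and 85.4 treated. The start site peaks were wider in 10 of 15 genes and narrower in 2 with TWEAK in SKBR3, beside 14.5% and 18.5% of all genes, and wider in 6 and narrower in 1 in MDA-MB-453, beside 18.9% and 15.6%. MAP3K14, the gene for NIK, was among the wider ones in SKBR3, with 6412 and 6531 bp untreated and 10896 and 11640 bp with TWEAK, while its rank overlapped.

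**Figure D5:**
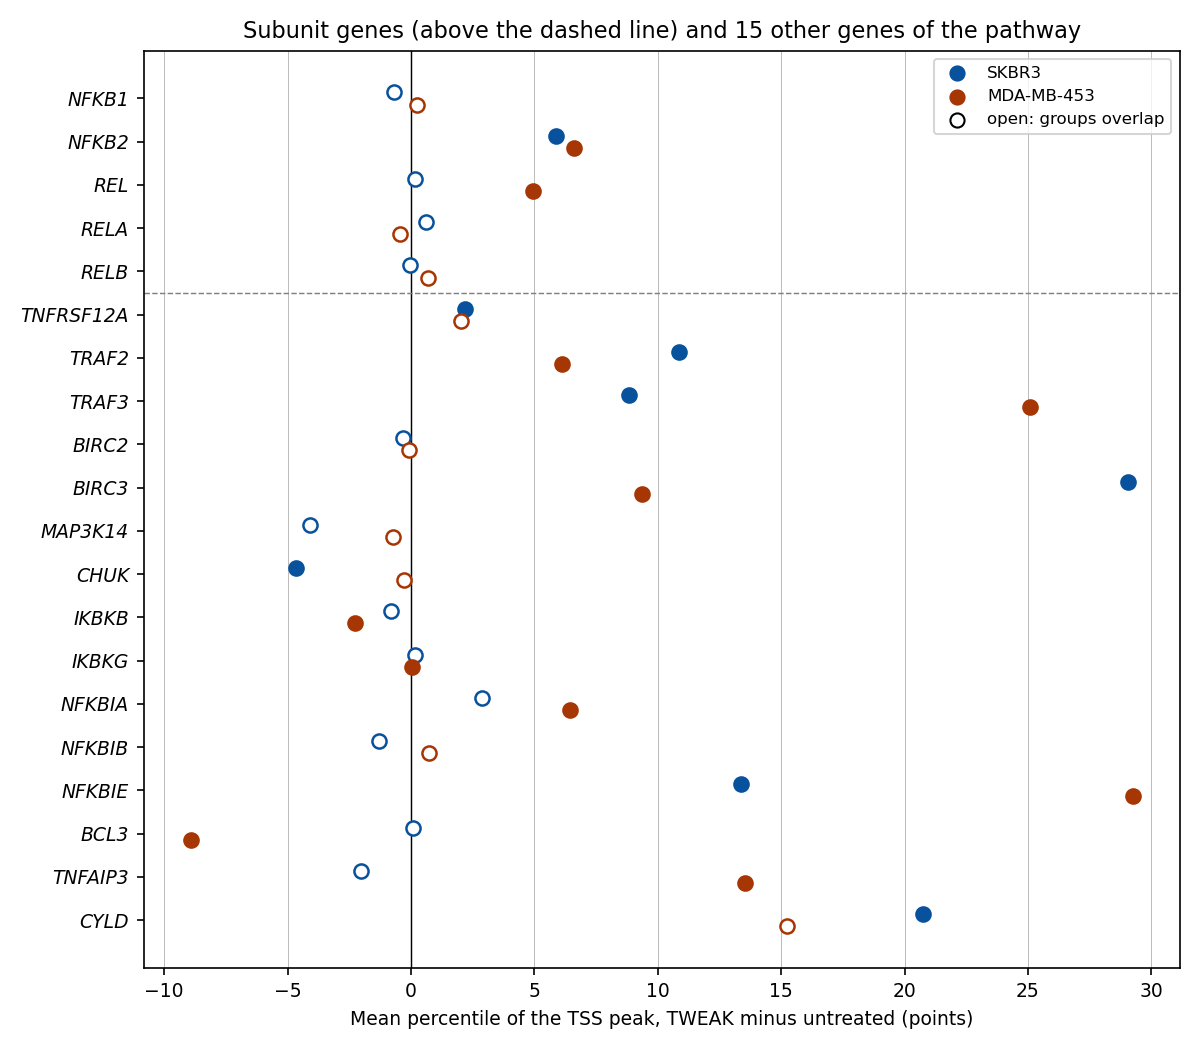
TWEAK change in the mean percentile of the start site peak (x axis, points) of the 5 subunit genes, above the dashed line, and of 15 other pathway genes, in SKBR3 (blue) and MDA-MB-453 (red). Filled points mark groups without overlap: NFKB2 is filled in both lines, as are TRAF2, TRAF3, BIRC3 and NFKBIE.

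Between the lines, 6 of the 15 ranked higher in SKBR3 and 3 lower without overlap, beside 29.6% and 29.3% of all genes, and 6 were wider and 3 narrower, beside 17.2% and 36.8%. TNFAIP3, TRAF3, TRAF2, TNFRSF12A, BCL3 and NFKBIB were the higher ones, and BIRC2, CHUK and IKBKG the lower ones.

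Genes whose start site rank over the 8 lists was nearest to that of a member were found by the root mean square difference in percentile among 9556 genes. For NFKB2 the nearest was NFKBIA, which encodes IκBα, at 2.18 points, followed by TP53BP2 at 2.51. For REL they were ACTN4 at 2.17 and SMURF1 at 3.09, for RELA RNPC3 at 0.623 and TRMT10A at 0.771, and for RELB DYRK1A at 0.704 and EFNA1 at 0.740. The nearest to NFKB1 was CLDN7 at 0.564, tied with ENSG00000262302, which has the same start site peak. Such closeness rests on 8 values per gene and was not tested.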

How the data were processed

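H3K27ac ChIP-seq peaks of 8 libraries were analysed. Per the labels and the study's methods, reads were trimmed with Trimmomatic and aligned to hg38 with Bowtie2, and the authors called peaks in each library with MACS2, subtracting input, and removed blacklisted regions. Versions and calling options were not given in the sources used here. The deposited peak lists give a score, the authors' fold enrichment, which is a ratio to the local background, the −log10 p-value and the −log10 q-value of each peak. They hold no read counts.

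The score was turned into a percentile within its list (ties averaged), and the highest peak within 1 kb of the GENCODE release 44 canonical start site stood for each protein-coding gene with such a peak in every list compared. Groups were compared by exact two-sided permutation tests over libraries, with Benjamini-Hochberg adjustment over all genes for the comparison of lines. With 2 libraries against 2 the smallest p is 0.333, so non-overlap was counted and set beside its share among all genes or regions. Named regions were those of each class with the highest mean percentile, and regions singled out beyond this rule were chosen after their values were seen. The members, the pathway list and the markers were chosen with earlier results of these data known. Scripts used Python 3.11.15, numpy 2.4.6, scipy 1.17.1 and pandas 2.3.3 and were tested on simulated data. Alternatives were a q-value threshold of 1e-05, lists of equal size, fold enrichment in place of score, other windows and merging rules, and leaving out each library. Those for covered length, region ranks and pathway genes were added after seeing the data.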

Additional observations from a re-analysis of the deposited data

Results flagged for a closer look

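The width of the RELB start site peak moved in opposite directions with TWEAK in the 2 lines. It was narrower in both TWEAK libraries of SKBR3, by a mean of -498 bp, and wider in both of MDA-MB-453, by 334 bp. The difference between these changes was -832 bp, with an exact permutation p of 0.0556 over 36 assignments, the smallest p this design allows. It was the smallest p among the 10 such tests, of rank and width in the 5 members, and the other 9 ranged from 0.222 to 0.944, with no adjustment made. Replicate 1 differed little, with 1745 and 1672 bp in SKBR3 and 1597 and 1627 bp in MDA-MB-453. Without 1 library at a time, the change lay between -711.5 and -284.5 bp in SKBR3 and between 125.5 and 542.5 bp in MDA-MB-453, with the values nearest to 0 found without the second SKBR3 TWEAK library and without the second untreated MDA-MB-453 library. The percentile of the same peak overlapped between treatments in both lines.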

How the results depend on the processing

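Under settings that left out no library, 199 of 215 member differences kept their call of overlap or non-overlap. Non-overlap was lost by 3 and gained by 13, and 0 differences called in the main setting changed sign. The 3 that lost it were the NFKB2 difference between lines with q-values under 1e-05, lists of equal size or ranks counted from the top. Differences whose groups overlapped counted as kept whatever their sign. The RELB rank change with TWEAK in SKBR3, for example, was -0.0461 points, and 0.106 points with q-values under 1e-05. Of 146 counts, 117 stayed within 1.5 times. With q-values under 1e-05, 2 members ranked higher with TWEAK in SKBR3, 0 pathway genes ranked lower and 1 was narrower there, 3 pathway genes ranked higher in MDA-MB-453, region ranks were lower for 1 in SKBR3 and higher for 5 and lower for 1 in MDA-MB-453, and 0 regions were lost in or found in MDA-MB-453 alone. With lists of equal size, 1 member and 2 pathway genes ranked lower and 1 region was lost in SKBR3, and with ranks from the top 1 member ranked lower. With peaks covering 50% of a region, 1 region was lost in SKBR3, 0 were lost in MDA-MB-453 and 1 was in MDA-MB-453 alone. In gene bodies alone, 0 regions were gained in SKBR3, 0 were lost in MDA-MB-453 and 2 were in SKBR3 alone. With 100 kb on each side 1 region was gained in MDA-MB-453 and 7 were in SKBR3 alone, and with peaks up to 1 kb apart merged 2 were. By cell line, 3 members were wider in SKBR3 among untreated libraries, 3 among TWEAK libraries and 2 with permutation within treatment. The cause of these moves was not tested.

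Leaving out 1 library leaves 2 against 1, where groups fail to overlap more often by construction. For the members, counts of higher and lower rank then ranged from 1 to 3 and 0 to 2 with TWEAK in SKBR3, from 2 to 4 and 0 to 1 in MDA-MB-453, and stayed at 5 and 0 between lines. Wider and narrower counts were 2 to 3 and 1 to 3 in SKBR3, 4 to 4 and 0 to 0 in MDA-MB-453, and 1 to 3 and 1 to 1 between lines. Covered length was higher for 3 to 4 and lower for 0 to 2 in SKBR3, and higher for 2 to 4 and lower for 0 to 1 in MDA-MB-453. Pathway ranks were higher for 6 to 9 and lower for 2 to 4 in SKBR3, and higher for 8 to 10 and lower for 2 to 4 in MDA-MB-453, and pathway widths were higher for 10 to 11 and lower for 2 to 4, and higher for 6 to 10 and lower for 1 to 4. Regions gained and lost were 2 to 6 and 0 to 3 in SKBR3, and 0 to 0 and 1 to 2 in MDA-MB-453, with region ranks higher for 5 to 8 and lower for 7 to 10 in SKBR3, and higher for 12 to 15 and lower for 4 to 6 in MDA-MB-453. Regions in SKBR3 alone numbered 4 to 6.

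The replicate numbers were shared by the groups, but the labels do not pair the samples. Differences between replicates 1 and 2 correlated across genes between untreated and TWEAK at 0.304 in SKBR3 and 0.0128 in MDA-MB-453. With the replicate block, 2 members ranked higher and 1 lower in SKBR3, 1 ranked lower in MDA-MB-453, and 2 were narrower in SKBR3, where 2 pairs allow no p under 0.5.

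Depth was unknown, and an absent peak means only that none was called. A percentile shows order within a list, not an amount of acetylation, and it moves with the number of peaks called.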
